A study of Homo sapiens with 10 samples.

Results

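Lysosomal hydrolases and lysosomal membrane proteins were examined as a group of 36 genes, chosen by gene symbol from a fixed list and not by a threshold on their values. The list was drawn up with earlier results of these data known. The group held 10 proteases and their relatives, 9 glycosidases, 4 sulfatases, 6 lipid hydrolases and lipid-handling proteins of the lumen, and 7 membrane proteins. All 36 were found among the 28380 count records of the experiment, where they took 37 records because CLN3 is listed under a pair of Ensembl identifiers. All 36 passed the filter on low counts that left 13378 genes for testing, with the second CLN3 record, which never exceeded 2 counts, removed by it.

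RPE-1 is an established human line of retinal pigment epithelial cells immortalized with telomerase. The cells were treated for 4 h with sulforaphane (SFN), an isothiocyanate of cruciferous vegetables, or with the vehicle DMSO alone, and RNA from 5 replicates of each treatment was sequenced. No other agent or allele is named for either group, and both groups come from 1 cell line. The study's methods describe cells treated per replicate and call replicates independent, but the sample labels do not tie them to separate days or passages, so p-values measure the spread between these samples.

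The lysosome is the acidic organelle in which proteins, glycans, sulfated sugars and lipids delivered by autophagy and endocytosis are broken down. Its soluble hydrolases each cleave a class of bond, and its membrane proteins shield the organelle, move products out and release calcium. Many of these genes carry a CLEAR motif, built around the letters CACGTG, in their promoters, to which the transcription factors TFEB, TFE3, MITF and TFEC of the MiT/TFE family can bind. In the pigment epithelium the lysosome is known for digesting the outer segments shed by photoreceptors.

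The CLEAR core was looked for in the promoters, since it is the feature by which these genes are often grouped. Windows from 250 bases before to 50 bases after the gene start, from RefSeq on GRCh38.p14, were found for 25 of the 36 members. ARSA, ASAH1, CTSB, CTSK, HEXA, LAMP2, LGMN, MANBA, NAGLU, PSAP and SGSH had no entry in that table. The letters CACGTG, which read the same on both strands, occurred in 10 of the 25 members (40%), namely ARSB, CD63, CLN3, CTSA, CTSD, CTSF, GAA, LAMP1, MCOLN1 and NEU1. They occurred in 8.77% of the 27305 genes of the table and in 12.6% of the 9724 tested genes with an entry. The longer palindrome TCACGTGA, which contains the core, occurred in 5 members (20%) against 2.32% of tested genes, and the same palindrome with a further G before and C after it in 2 members (8%) against 0.874%. A match describes the letters and does not show binding.

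Stretches around the core are shown for 4 members whose counts are described below, each 5′ to 3′ on the gene's own strand with the core in capitals. LAMP1 had 6 cores in its window, of which the 5 before the gene start are shown (chr13:113297027-113297236, plus strand), and MCOLN1 had 2 (chr19:7522563-7522623, plus strand). CTSD (chr11:1763949-1763994, minus strand) and CD63 (chr12:55729164-55729209, minus strand) had 1 each.
LAMP1: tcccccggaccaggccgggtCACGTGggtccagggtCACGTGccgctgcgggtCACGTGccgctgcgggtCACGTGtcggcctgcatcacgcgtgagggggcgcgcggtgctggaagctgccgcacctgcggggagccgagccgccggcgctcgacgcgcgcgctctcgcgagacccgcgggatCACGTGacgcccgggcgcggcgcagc
MCOLN1: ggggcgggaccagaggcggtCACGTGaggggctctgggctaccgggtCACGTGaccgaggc
CTSD: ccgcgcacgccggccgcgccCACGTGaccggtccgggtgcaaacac
CD63: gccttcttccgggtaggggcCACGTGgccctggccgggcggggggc

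The fold changes of the members were small and mostly of 1 sign. With TMM scaling all 36 members had a positive log2 fold change, against 47.4% of all genes tested, and with library size as the only scaling 34 did. Their median was 0.34 against -0.028 over all genes. By the quasi-likelihood test of edgeR, with p-values adjusted over all genes by the Benjamini-Hochberg method, 11 members (30.6%) increased at an adjusted p under 0.05, where the background is 9.07% of genes increased. At the same threshold 0 members decreased, where the background is 13.9% of genes. At an unadjusted p under 0.05, 17 members increased (background 14.6%) and 0 decreased (background 20%). The increases ranged from 1.27-fold to 1.62-fold, and 0 members met the study's definition of a differentially expressed gene, which adds a change above 2-fold (8.69% of genes in either direction).

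DMSO replicate 1 stood apart from the other libraries and bears on most of these counts. It was the highest DMSO library in 18 of the 36 members and the lowest in 13. Without it, 22 members (61.1%) increased and 0 decreased, while the backgrounds also rose, to 22.5% of genes increased and 23.5% decreased. The 22 included all 11 of the first fit, the median was 0.33 against -0.0032 over all genes, and 35 members were positive (background 49.7%), with IDS the exception. With SFN replicate 2 left out as well, which was chosen after seeing the data, 22 members increased against a background of 23.2%, and 21 of them were the same genes.

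**Figure D1:**
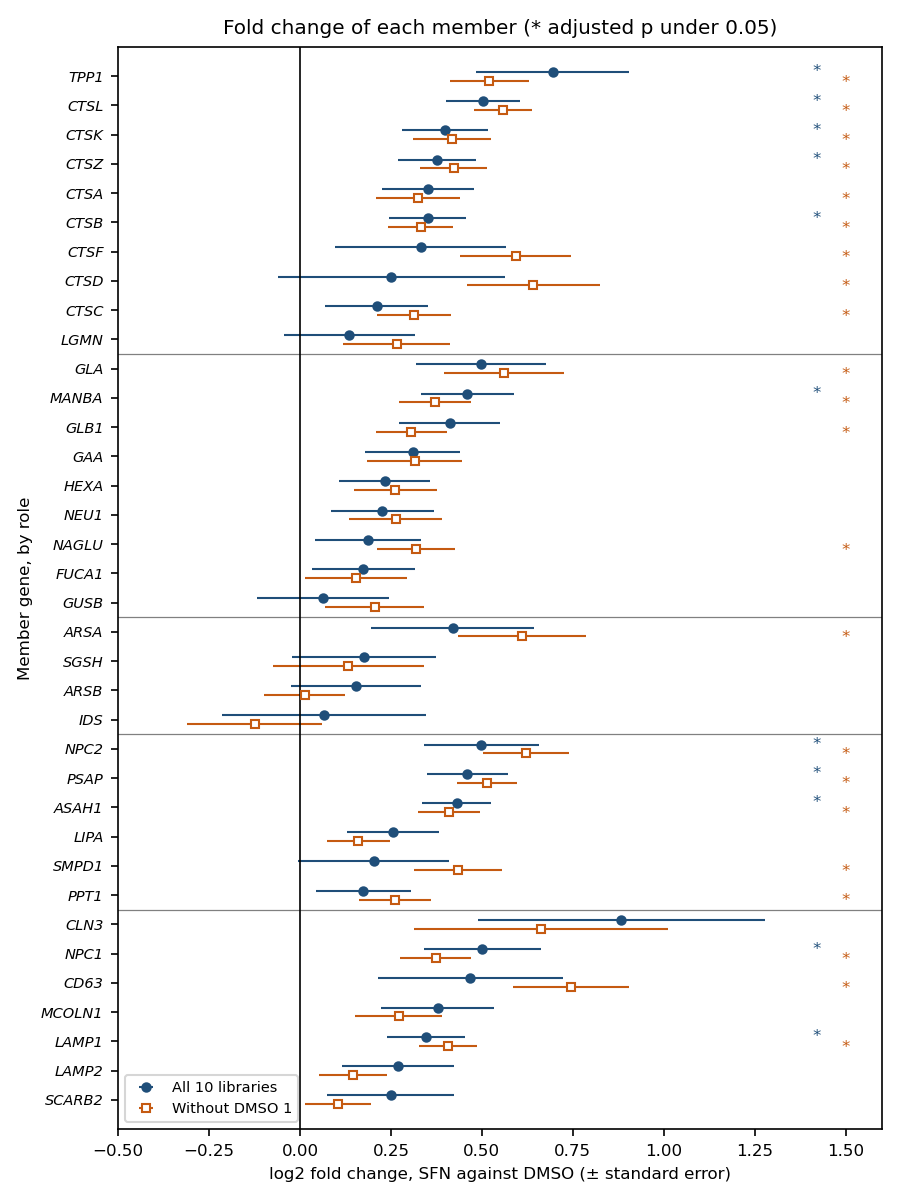
Log2 fold change of SFN against DMSO for each member (x axis, bars are ± 1 standard error), ordered by role, over all 10 libraries (filled circles) and without DMSO replicate 1 (open squares); asterisks mark an adjusted p under 0.05. With TMM scaling the filled circles lie right of 0 for all 36 members (34 with library size only), with 11 asterisks, and the open squares have 22.

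Total counts ranged from 15689294 to 20666692 in the DMSO libraries and from 12375860 to 17308706 in the SFN libraries. The members took 0.475% to 0.504% of the counts in DMSO and 0.538% to 0.669% in SFN, and these ranges did not overlap. Levels below are CPM, counts relative to the TMM-scaled size of each library. Of 11 pigment epithelium markers, 10 had a count record: PAX6, OTX2, MITF, BEST1, KRT8 and KRT18 were present, PMEL was at 0.472 to 1.79 CPM, and RPE65, RLBP1 and TYRP1 were at or near 0, so these defining markers of mature pigment epithelium were absent. The 10 summed to 627 to 926 CPM in DMSO and 615 to 1041 CPM in SFN. OTX2, a transcription factor of the pigment epithelium, was lower in every SFN library than in any DMSO library (log2 fold change -0.64, edgeR adjusted p = 0.0029), and MITF is described below with its family. BEST1, a chloride channel, had a log2 fold change of 1.17 (edgeR adjusted p = 0.16), and 1.68 (edgeR adjusted p = 0.0096) without DMSO replicate 1. SFN replicate 2 held 107 CPM of it, against 19.4 to 33.4 CPM in the other SFN libraries. With that library left out as well, the value was 0.999 (edgeR adjusted p = 0.0036). The keratin KRT8 had 0.23 (edgeR adjusted p = 0.37) over all libraries, and 0.37 (edgeR adjusted p = 0.016) without DMSO replicate 1. Over all libraries KRT18 had 0.27 (edgeR adjusted p = 0.27) and PAX6 0.0092 (edgeR adjusted p = 0.96). The part of these markers in the members' values was not tested. Leukocyte markers summed to 1.62 to 2.96 CPM in DMSO and 2.23 to 3.45 CPM in SFN, fibroblast markers to 0.663 to 1.81 CPM in DMSO and 0.715 to 1.55 CPM in SFN, and endothelial markers to 0 to 0.5605 CPM in DMSO and 0 to 0.0675 CPM in SFN. Among leukocyte markers, CD14 was at most 0.125 CPM in DMSO and 0.282 to 1.07 CPM in SFN, and PTPRC was at most 0.358 CPM in any library. In bulk RNA, fewer cells of a type and less RNA per cell cannot be told apart.

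**Figure D2:**
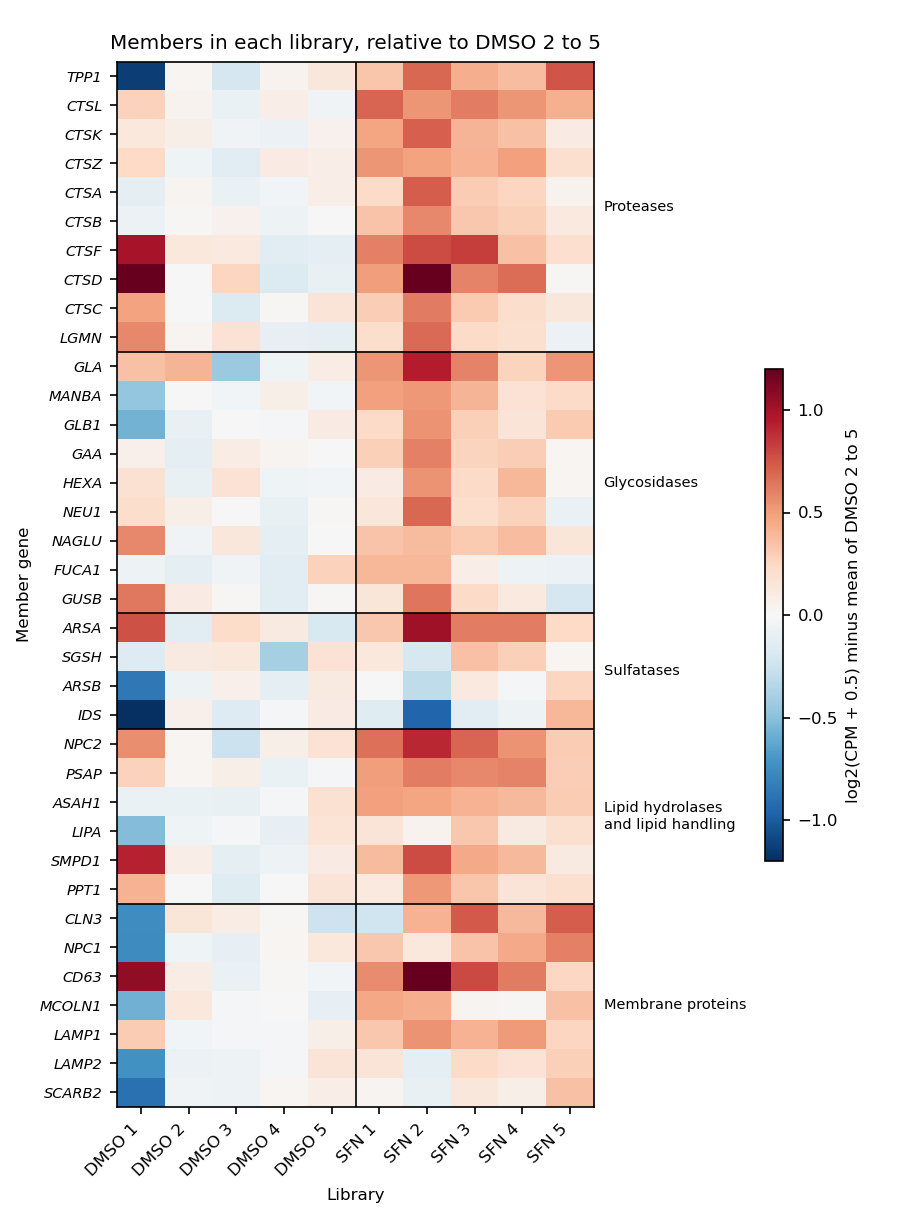
Level of each member (rows, by role) in each library (columns) as log2(CPM + 0.5) minus the mean of DMSO replicates 2 to 5, with colours ending at ± 1.2. The SFN columns are mostly above 0, most strongly in SFN replicate 2, while DMSO replicate 1 holds both the highest and the lowest values of the DMSO columns.

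The proteases digest proteins in the lumen, and 5 of 10 increased, against the background of 9.07% (9 without DMSO replicate 1, against 22.5%), with a median log2 fold change of 0.35. CTSL (chr9:87724051-87731469) encodes cathepsin L, a cysteine endopeptidase. It measured 164, 139, 128, 143 and 131 CPM in DMSO replicates 1 to 5 and 219.6, 195, 207, 195 and 182 CPM in SFN replicates 1 to 5. All SFN libraries were above all DMSO libraries, and the log2 fold change was 0.50 (SE 0.10, edgeR adjusted p = 0.0039). TPP1 (chr11:6612768-6619448), the tripeptidyl peptidase lost in a neuronal ceroid lipofuscinosis, had the largest increase of the members past the threshold over all libraries, a place that it lost without DMSO replicate 1. Its DMSO libraries held 19.7, 44.7, 37.96, 45.1 and 48.1 CPM and its SFN libraries 55.1, 70.9, 59.4, 56.8 and 74.3 CPM. DMSO replicate 1 was far below the rest, the groups did not overlap, and the log2 fold change of 0.69 (SE 0.21, edgeR adjusted p = 0.034) became 0.52 (SE 0.11, edgeR adjusted p = 0.0016) without that library.

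CTSB, for the cysteine protease cathepsin B, gave 467, 493, 509, 469 and 487 CPM in DMSO and 619, 732, 614, 597 and 531 CPM in SFN. The groups were separate, with SFN replicate 2 the highest, and the log2 fold change was 0.35 (SE 0.11, edgeR adjusted p = 0.033), though 0.19 (adjusted p = 0.31) by limma-voom. CTSK (chr1:150794880-150809577), the collagen-cleaving cathepsin K, gave 63.8, 61.2, 56.6, 55.7 and 60.6 CPM in DMSO against 81.5, 96.5, 77.7, 74.6 and 62.6 CPM in SFN. Here DMSO replicate 1 lay just above SFN replicate 5 and the others were separate, with a log2 fold change of 0.40 (SE 0.12, edgeR adjusted p = 0.030). For CTSZ (chr20:58985686-59008238), the carboxypeptidase cathepsin Z, the values were 70.2, 57.1, 54.01, 63.7 and 62.9 CPM in DMSO and 85.8, 83.2, 79.4, 83.5 and 67.8 CPM in SFN. Again only DMSO replicate 1 reached into the SFN range, above SFN replicate 5, and the log2 fold change was 0.38 (SE 0.11, edgeR adjusted p = 0.026). Exons of CTSZ overlap those of NELFCD on the opposite strand by 6136 bases, none of them in canonical transcripts, and NELFCD had a log2 fold change of 0.40 (edgeR adjusted p = 0.10). Whether reads were counted by strand is not given in the sources used here, so reads of such pairs cannot be told apart.

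Of the other 5 proteases, 4 missed the threshold over all libraries by edgeR and passed it without DMSO replicate 1. CTSA (chr20:45890144-45898949), the protective protein that stabilizes the galactosidase and sialidase, measured 72.4, 79.8, 73.3, 76.1 and 82.1 CPM in DMSO and 91.6, 129, 95.99, 93.3 and 80.3 CPM in SFN. SFN replicate 5 fell within the DMSO range and SFN replicate 2 was the highest, and the log2 fold change of 0.35 (SE 0.13, edgeR adjusted p = 0.066) became 0.32 (SE 0.12, edgeR adjusted p = 0.033). With all libraries CTSA was past the threshold by DESeq2's Wald test (adjusted p = 0.023). CTSD, the aspartic protease cathepsin D, measured 315, 120.1, 144, 108 and 114 CPM in DMSO and 171, 285, 183, 192 and 122 CPM in SFN. DMSO replicate 1 exceeded every SFN library, and the log2 fold change was 0.25 (SE 0.31, edgeR adjusted p = 0.63) with it and 0.64 (SE 0.18, edgeR adjusted p = 0.011) without it. CTSF, for cathepsin F, was similar at 0.33 (SE 0.24, edgeR adjusted p = 0.36) and 0.59 (SE 0.15, edgeR adjusted p = 0.0061), and CTSC, the dipeptidyl peptidase that activates granule proteases, at 0.21 (SE 0.14, edgeR adjusted p = 0.33) and 0.31 (SE 0.10, edgeR adjusted p = 0.022). LGMN, the asparaginyl endopeptidase, passed in neither fit, with a log2 fold change of 0.14 (SE 0.18, edgeR adjusted p = 0.65), and 0.27 (SE 0.15, edgeR adjusted p = 0.15) without DMSO replicate 1. Canonical exons of CTSD share 1139 bases with those of ENSG00000250644 on the same strand, which had 93 counts in all libraries together. How reads in these bases were assigned is not given.

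**Figure D3:**
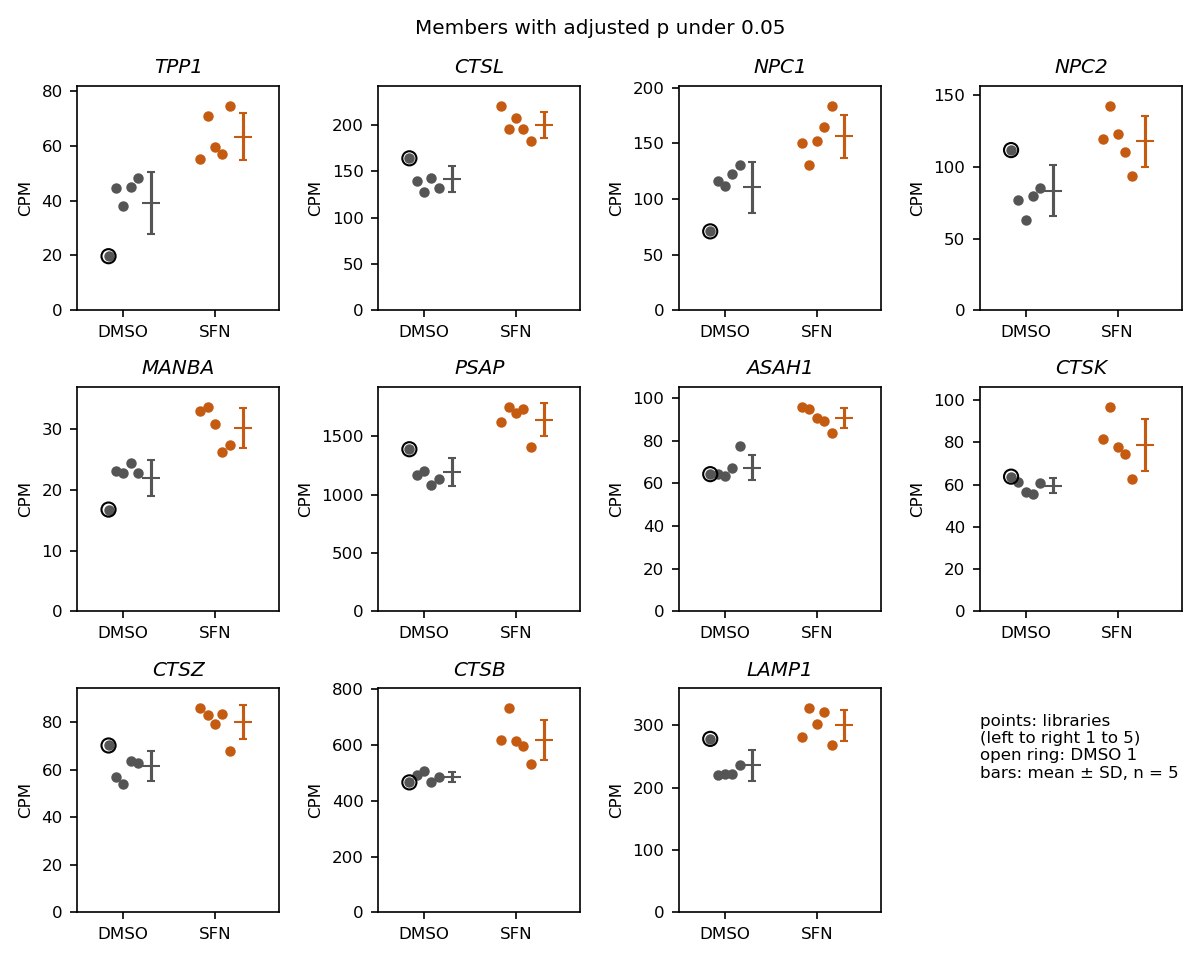
CPM in each library for the 11 members with an adjusted p under 0.05 over all 10 libraries, with 5 DMSO points and 5 SFN points a gene, the mean ± SD beside them and DMSO replicate 1 ringed. In 7 panels the groups do not overlap, and in the other 4 (CTSK, CTSZ, NPC2, LAMP1) the ringed library is the only DMSO library inside the SFN range.

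The lipid hydrolases and lipid-handling proteins degrade sphingolipids and move cholesterol, and 3 of 6 increased (5 without DMSO replicate 1, with the same backgrounds of 9.07% and 22.5%), with a median log2 fold change of 0.34. PSAP (chr10:71816298-71851251) encodes prosaposin, the precursor of the saposins that present sphingolipids to their hydrolases. It measured 1389.7, 1167, 1200.2, 1085 and 1132 CPM in DMSO and 1622, 1748, 1704, 1731 and 1407 CPM in SFN. The lowest SFN library, replicate 5, lay just above the highest DMSO library, replicate 1, and the log2 fold change was 0.46 (SE 0.11, edgeR adjusted p = 0.011). ASAH1, the acid ceramidase, measured 64.3, 64.2, 63.6, 67.2 and 77.4 CPM in DMSO and 95.6, 94.7, 90.6, 89.3 and 83.8 CPM in SFN. The groups were separate, DMSO replicate 5 was the highest of its group, and the log2 fold change was 0.43 (SE 0.09, edgeR adjusted p = 0.0063). NPC2 (chr14:74476192-74494177), the soluble protein that passes cholesterol to NPC1, measured 112, 76.9, 63.1, 79.3 and 85.4 CPM in DMSO and 119.6, 142, 123, 110.0 and 93.6 CPM in SFN. DMSO replicate 1 was above SFN replicates 4 and 5 and the others were separate, with a log2 fold change of 0.50 (SE 0.16, edgeR adjusted p = 0.041) that became 0.62 (SE 0.12, edgeR adjusted p = 0.00083) without it.

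SMPD1, the acid sphingomyelinase, measured 49.4, 27.3, 23.9, 24.8 and 27.7 CPM in DMSO and 33.8, 44.9, 35.7, 33.9 and 27.9 CPM in SFN. DMSO replicate 1 was above every SFN library while the other 4 were below them all, and the log2 fold change moved from 0.20 (SE 0.21, edgeR adjusted p = 0.54) to 0.43 (SE 0.12, edgeR adjusted p = 0.0098) without it. PPT1, the thioesterase that removes palmitate from proteins, moved from 0.17 (SE 0.13, edgeR adjusted p = 0.39) to 0.26 (SE 0.10, edgeR adjusted p = 0.045), and was not past the threshold when SFN replicate 2 was left out too. LIPA, the acid lipase of cholesteryl esters, did not pass in either fit, with a log2 fold change of 0.26 (SE 0.13, edgeR adjusted p = 0.18), and 0.16 (SE 0.09, edgeR adjusted p = 0.15) without DMSO replicate 1.

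Of the 7 membrane proteins, 2 increased (3 without DMSO replicate 1, with backgrounds of 9.07% and 22.5%), with a median log2 fold change of 0.38. NPC1 (chr18:23506184-23586506), the cholesterol exporter of the limiting membrane, measured 70.99, 116, 112, 122 and 131 CPM in DMSO and 150.4, 131, 152, 165 and 183 CPM in SFN. DMSO replicate 1 was the lowest library, and SFN replicate 2, at 130.9 CPM, lay just above DMSO replicate 5, at 130.8 CPM, so that the groups did not overlap by this margin alone. The log2 fold change was 0.50 (SE 0.16, edgeR adjusted p = 0.042), and 0.37 (SE 0.10, edgeR adjusted p = 0.0071) without DMSO replicate 1. Exons of NPC1 and of RMC1 on the opposite strand share 198 bases of their canonical transcripts, and RMC1 had a log2 fold change of 0.15 (edgeR adjusted p = 0.37). LAMP1 (chr13:113297239-113323672), the abundant glycoprotein of the lysosomal membrane, measured 278, 220.0, 222, 222 and 237 CPM in DMSO and 281, 327, 301, 321 and 268 CPM in SFN. DMSO replicate 1 was above SFN replicate 5 and below the others, the remaining DMSO libraries were below all SFN libraries, and the log2 fold change was 0.35 (SE 0.11, edgeR adjusted p = 0.037).

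CD63, a tetraspanin of late endosomes and lysosomes, was not past the threshold over all libraries but was without DMSO replicate 1. It measured 1353, 691, 616, 657 and 634 CPM in DMSO and 962, 1607, 1126, 1003 and 769.5 CPM in SFN. DMSO replicate 1 exceeded all SFN libraries but replicate 2, and the log2 fold change moved from 0.47 (SE 0.25, edgeR adjusted p = 0.22) to 0.74 (SE 0.16, edgeR adjusted p = 0.0019). MCOLN1 (chr19:7522624-7534009), the calcium channel mucolipin 1, measured 11.1, 18.4, 16.5, 16.8 and 15.7 CPM in DMSO and 23.4, 22.9, 17.2, 17.00 and 21.5 CPM in SFN. SFN replicates 3 and 4 lay within the DMSO range, and the log2 fold change was 0.38 (SE 0.16, edgeR adjusted p = 0.10), and 0.27 (SE 0.12, edgeR adjusted p = 0.079) without DMSO replicate 1. LAMP2, the other large membrane glycoprotein, had 0.27 (SE 0.15, edgeR adjusted p = 0.25), and 0.15 (SE 0.09, edgeR adjusted p = 0.22) without DMSO replicate 1. It was past the threshold in both fits added after seeing the data, when DMSO replicate 1 and SFN replicate 2 were both left out (edgeR adjusted p = 0.029) and with the length offset (edgeR adjusted p = 0.0086). SCARB2, the receptor that carries glucocerebrosidase to the lysosome, had 0.25 (SE 0.17, edgeR adjusted p = 0.35), and 0.10 (SE 0.09, edgeR adjusted p = 0.37) without DMSO replicate 1. CLN3, a membrane protein lost in juvenile ceroid lipofuscinosis, had the largest fitted log2 fold change, 0.88 (SE 0.39, edgeR adjusted p = 0.13), from only 3 to 20 counts a library.

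The glycosidases remove sugars from glycans and glycolipids, and 1 of 9 increased, a share near the background of 9.07% (4 without DMSO replicate 1, against 22.5%), with a median log2 fold change of 0.23. MANBA (chr4:102630770-102760994), the beta-mannosidase, measured 16.8, 23.1, 22.7, 24.4 and 22.7 CPM in DMSO and 32.96, 33.6, 30.9, 26.2 and 27.4 CPM in SFN. The groups were separate with DMSO replicate 1 the lowest, and the log2 fold change was 0.46 (SE 0.13, edgeR adjusted p = 0.023). GLB1 (chr3:32996609-33097202), the beta-galactosidase, measured 17.2, 24.2, 25.8, 25.4 and 27.7 CPM in DMSO and 30.3, 37.8, 31.4, 28.7 and 32.1 CPM in SFN. Its groups were separate too, yet the log2 fold change of 0.41 (SE 0.14, edgeR adjusted p = 0.052) missed the threshold, and without DMSO replicate 1 it was 0.31 (SE 0.10, edgeR adjusted p = 0.020). With all libraries GLB1 was past it with DESeq2 size factors in edgeR (adjusted p = 0.042), by DESeq2's Wald test (adjusted p = 0.015) and by limma-voom (adjusted p = 0.028). GUSB (chr7:65960684-65982215), the beta-glucuronidase, measured 52.5, 36.1, 34.05, 30.96 and 34.2 CPM in DMSO and 37.5, 53.1, 39.6, 36.8 and 29.2 CPM in SFN. The groups overlapped, with DMSO replicate 1 and SFN replicate 2 each the highest of its group, and the log2 fold change was 0.06 (SE 0.18, edgeR adjusted p = 0.85), and 0.21 (SE 0.14, edgeR adjusted p = 0.23) without DMSO replicate 1. The direction of GUSB turned without SFN replicate 2, at -0.06 (edgeR adjusted p = 0.85), and with library size as the only scaling, at -0.0081. It was also just negative without DMSO replicate 4, at -0.0005. GUSB has near-identical pseudogene copies, of which GUSBP1 had 1169 counts in all libraries together, so its reads could be split.

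Among the remaining glycosidases, GLA, the alpha-galactosidase, and NAGLU, an enzyme of heparan sulfate breakdown, missed the threshold over all libraries by edgeR and passed it without DMSO replicate 1. GLA moved from 0.50 (SE 0.18, edgeR adjusted p = 0.068) to 0.56 (SE 0.17, edgeR adjusted p = 0.013) and NAGLU from 0.19 (SE 0.15, edgeR adjusted p = 0.41) to 0.32 (SE 0.11, edgeR adjusted p = 0.026). With all libraries GLA was past the threshold by DESeq2's Wald test (adjusted p = 0.036) and by limma-voom (adjusted p = 0.048). GLA shares exon bases with RPL36A on the opposite strand, which had a log2 fold change of -1.09 (edgeR adjusted p = 0.030). Without DMSO replicate 1, that of RPL36A was -0.66 (edgeR adjusted p = 0.0060). The other 4 passed in neither edgeR fit. GAA, the acid alpha-glucosidase, had a log2 fold change of 0.31 (SE 0.13, edgeR adjusted p = 0.11) and was past the threshold by limma-voom (adjusted p = 0.023), and HEXA, the hexosaminidase alpha subunit, one of 0.23 (SE 0.12, edgeR adjusted p = 0.22). NEU1, the sialidase, had 0.23 (SE 0.14, edgeR adjusted p = 0.29), and FUCA1, the fucosidase, 0.17 (SE 0.14, edgeR adjusted p = 0.43).

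Of the 4 sulfatases, which strip sulfate from glycosaminoglycans and sulfatide, 0 increased (background 9.07%), and 1 did without DMSO replicate 1 (background 22.5%), with a median log2 fold change of 0.17. ARSA, the sulfatide-cleaving arylsulfatase, moved from 0.42 (SE 0.22, edgeR adjusted p = 0.21) to 0.61 (SE 0.18, edgeR adjusted p = 0.012). IDS, the iduronate sulfatase, measured 41.2, 109.8, 94.7, 105 and 113 CPM in DMSO and 94.95, 54.1, 95.5, 101 and 139 CPM in SFN. DMSO replicate 1 and SFN replicate 2 were each the lowest of its group, and the groups overlapped. The log2 fold change of IDS was 0.07 (SE 0.28, edgeR adjusted p = 0.90), and -0.12 (SE 0.19, edgeR adjusted p = 0.61) without DMSO replicate 1. It was also negative with library size as the only scaling, at -0.04, and without SFN replicate 5, at -0.10. Canonical exons of IDS share 6877 bases with those of ENSG00000241489 on the same strand, which had 18 counts in all libraries together. How reads in such shared bases were assigned is not given in the sources used here. ARSB, the arylsulfatase of dermatan sulfate, had 0.15 (SE 0.18, edgeR adjusted p = 0.60), and 0.01 (SE 0.11, edgeR adjusted p = 0.93) without DMSO replicate 1. SGSH, the sulfamidase of heparan sulfate, had 0.18 (SE 0.20, edgeR adjusted p = 0.59), and 0.08 without DMSO replicate 4.

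All SFN libraries were above all DMSO libraries in 8 members (22.2%), against 8.78% of genes tested, and below them in 0, against 11.1%. These 8 were CTSB, CTSL, TPP1, GLB1, MANBA, ASAH1, PSAP and NPC1. Against DMSO replicates 2 to 5 alone, all SFN libraries were above in 17 members (47.2%), with a background of 16.6%. CTSL and PSAP passed the threshold under each of the 19 alternatives, and ASAH1 under 18 of the 19. MANBA and TPP1 each passed under 13, NPC1 under 9, CTSZ under 8, and CTSB, CTSK, LAMP1 and NPC2 under 7. The settings that lost a call differed by gene and included limma-voom, single libraries left out, library size only, no filter and the replicate block. By limma-voom, CTSB, CTSK (adjusted p = 0.062), CTSZ (adjusted p = 0.053), LAMP1 and NPC1 were among those lost. That fit called 2 of 10 proteases, 4 of 9 glycosidases, 0 of 4 sulfatases, 2 of 6 lipid genes and 0 of 7 membrane proteins (9.84% of all genes). The log2 fold changes of the members named here stayed positive under all settings. The range was 0.19 to 0.40 for CTSB, 0.31 to 0.47 for CTSK, 0.29 to 0.43 for CTSZ and 0.25 to 0.41 for LAMP1. It was 0.35 to 0.62 for NPC2, 0.37 to 0.57 for NPC1, 0.34 to 0.52 for MANBA and 0.48 to 0.78 for TPP1.

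Leaving out SFN replicate 2 moved several members that were not past the threshold over all libraries. Without it, the log2 fold change of CTSD was 0.07 (edgeR adjusted p = 0.91), that of CD63 0.30 (edgeR adjusted p = 0.45) and that of SMPD1 0.11 (edgeR adjusted p = 0.78). On the same scale LGMN was at 0.02, CTSC at 0.13, PPT1 at 0.11, NEU1 at 0.10 and FUCA1 at 0.11, all lower than over all libraries, while IDS was at 0.22 and so higher. With both DMSO replicate 1 and SFN replicate 2 left out, CTSD was at 0.46, CD63 at 0.57 and SMPD1 at 0.34, each past the threshold in this fit added after seeing the data.

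DMSO replicate 1 and SFN replicate 2 departed from their groups in a way that followed transcript length. Across the 36 members, the log2 ratio of DMSO replicate 1 to the mean of the other DMSO libraries had a Pearson r of -0.51 with log2 canonical transcript length, and that of SFN replicate 2 to the other SFN libraries one of -0.54. The pair of ratios had an r of 0.72 with each other. These describe 36 genes measured in shared libraries and are not a test. The longest member transcript, IDS with 7580 bases, was low in both libraries, and short ones such as CD63 with 1023 bases were high in both. Of the IDS bases, 6877 are shared with ENSG00000241489 on the same strand. With an offset for this length trend in each library, chosen after seeing the data, 12 members increased against a background of 12%. Over all genes, the slope with transcript length was -0.26 in DMSO replicate 1 and 0.082 to 0.135 in DMSO replicates 2 to 5. It was -0.17 in SFN replicate 2, -0.053 to -0.031 in SFN replicates 1, 3 and 4, and 0.10 in SFN replicate 5. Without DMSO replicate 1 the slope thus differed by treatment, except in SFN replicate 5. That library was the lowest of its group in 22 of the 36 members. What sets this trend, and its part in the members' values, was not tested.

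**Figure D4:**
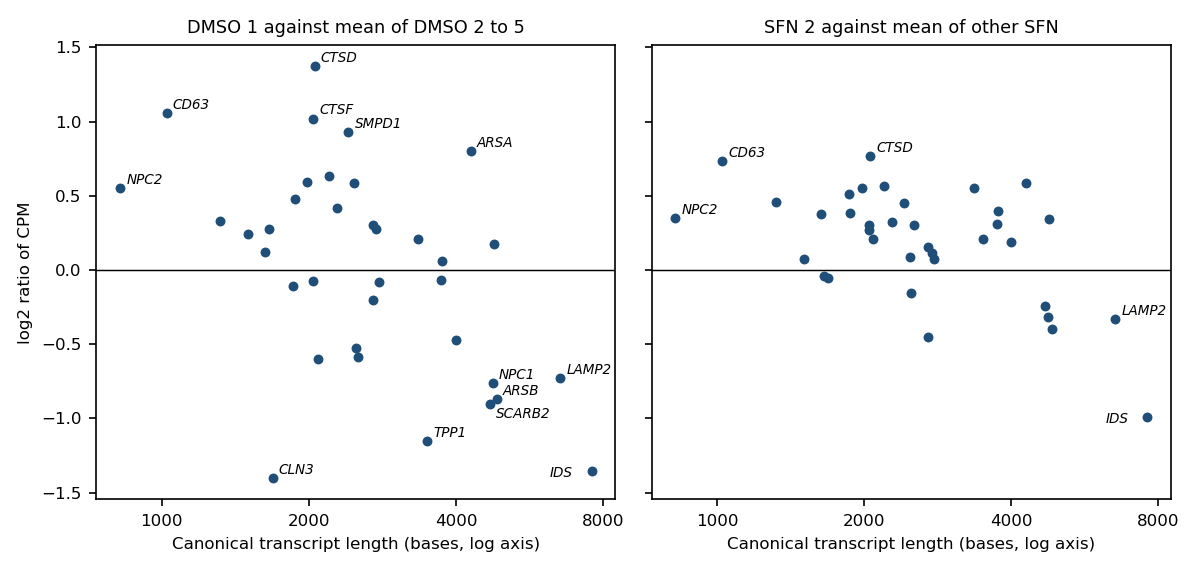
Log2 ratio of CPM in DMSO replicate 1 to the mean of DMSO replicates 2 to 5 (left) and in SFN replicate 2 to the mean of the other SFN libraries (right) against canonical transcript length in bases on a log axis, 1 point for each of the 36 members. Points fall with length in both panels, and IDS, the longest, is at -1.35 on the left.

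The 4 members with qPCR primers in the study were LAMP1, CTSA, MCOLN1 and GUSB, and their primers are shown because they mark which stretch of each transcript that assay reads. The methods of the study name QuantSeq, a preparation that reads transcript 3′ ends, but the labels name an Illumina preparation instead, so whether reads lie near those ends is not settled. The amplicon ended 440 bases from the 3′ end of the canonical transcript in GUSB, 984 in CTSA, 1691 in MCOLN1 and 2220 in LAMP1. By edgeR, LAMP1 of these 4 passed the threshold over all libraries, and LAMP1 and CTSA did without DMSO replicate 1. For all of these genes except GUSB, the paper reports induction by qPCR after a longer treatment than in these libraries. GUSB is not named in that result. The paper describes the CLEAR pathway as suppressed at the time point sequenced here, from lower mRNA of TFEB and MITF. How the calls above relate to either statement was not tested.
LAMP1 forward: gctgccttctcagtgaactac
LAMP1 reverse: tccaaaagcaatcacgagact
CTSA forward: ggaacaggctttggtcttct
CTSA reverse: gattgtagatgttgaggccaga
MCOLN1 forward: catgagtccctgcgacaag
MCOLN1 reverse: agctgattactgagcccaaac
GUSB forward: gcccattattcagagcgagta
GUSB reverse: gtttttgatccagacccagatg

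The MiT/TFE factors did not move in 1 direction. TFEB measured 2.68, 1.73, 2.12, 1.08 and 1.598 CPM in DMSO and 0.596, 0.431, 0.372, 0.405 and 0.918 CPM in SFN, from 5 to 43 counts a library. MITF fell from 50.8 ± 4.95 to 23.4 ± 2.78 CPM (SD, n = 5). Both were lower in every SFN library than in any DMSO library, with log2 fold changes of -1.73 (SE 0.33, edgeR adjusted p = 0.0029) for TFEB and -1.12 (SE 0.12, edgeR adjusted p = 5.3e-05) for MITF. TFE3 measured 34.3, 52.7, 67.4, 52.3 and 52.4 CPM in DMSO and 80.8, 89.6, 80.7, 85.4 and 81.7 CPM in SFN, all SFN libraries above all DMSO libraries, with a log2 fold change of 0.69 (SE 0.15, edgeR adjusted p = 0.0063). TFEC did not pass the threshold, at -0.04 (SE 0.35, edgeR adjusted p = 0.96). Members with a CACGTG core had a median log2 fold change of 0.34 (n = 10), those without it 0.26 (n = 15) and those with no promoter entry 0.35 (n = 11), which is a description with no test.

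Among 49 other lysosomal genes, 46 were tested, 42 had a positive log2 fold change (36 with library size as the only scaling), and the median was 0.25. Increases were found in 4 and decreases in 2, against the backgrounds of 9.07% and 13.9%, and without DMSO replicate 1 in 15 and 2, against 22.5% and 23.5%. CLCN7, the chloride and proton exchanger, increased with a log2 fold change of 0.61 (SE 0.14, edgeR adjusted p = 0.0084), and TMEM192, a membrane protein, with one of 0.52 (SE 0.17, edgeR adjusted p = 0.046). CD164, a sialomucin, increased by 0.50 (SE 0.09, edgeR adjusted p = 0.0016), and PLD3, an exonuclease, by 0.45 (SE 0.13, edgeR adjusted p = 0.031) on the same scale. TPCN2, a cation channel, had a log2 fold change of -1.001 (SE 0.22, edgeR adjusted p = 0.0060), and MFSD8, a transporter lost in a ceroid lipofuscinosis, one of -0.43 (SE 0.14, edgeR adjusted p = 0.048). CLCN7 measured 22.5, 34.4, 35.2, 33.1 and 39.4 CPM in DMSO and 45.8, 50.3, 50.3, 54.8 and 50.3 CPM in SFN, and TPCN2 3.49, 3.46, 4.75, 3.13 and 3.197 CPM and 2.15, 1.21, 2.01, 2.16 and 1.41 CPM. By subgroup, 1 of 24 tested hydrolases and cofactors, 0 of 6 genes of transport to the lysosome and 3 of 16 membrane proteins increased, where 9.07% of all genes did, and both decreased genes were membrane proteins.

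**Figure D5:**
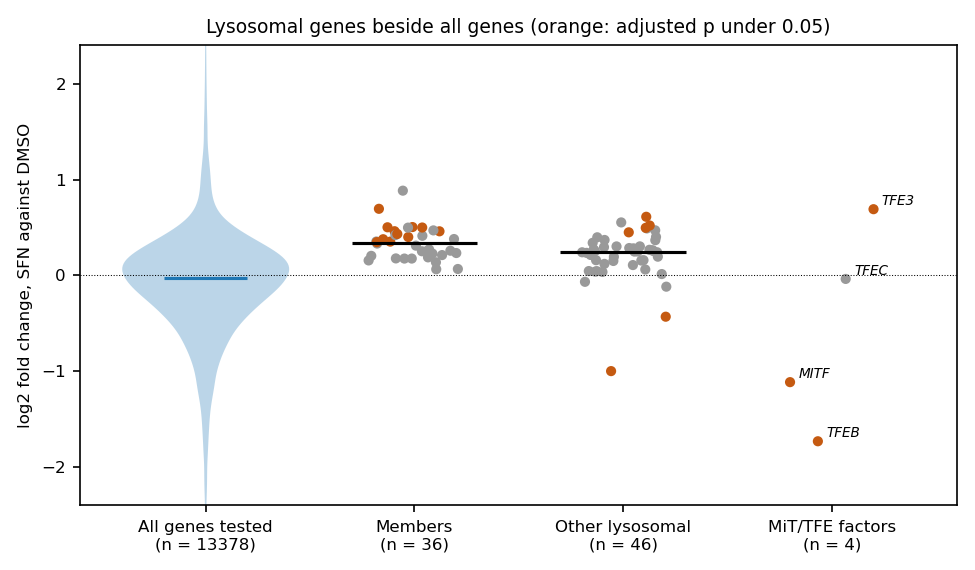
Log2 fold change of SFN against DMSO for all 13378 genes tested (violin, axis cut at ± 2.4), the 36 members, the 46 other lysosomal genes tested and the 4 MiT/TFE factors, with medians as bars and genes with an adjusted p under 0.05 in orange. The member median is 0.34 and that of the other lysosomal genes 0.25, while TFEB and MITF lie below 0 and TFE3 above.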

How the data were processed

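RNA of RPE-1 cells was sequenced from 10 samples, 5 treated with SFN and 5 with DMSO, grouped by the sample labels. The authors deposited raw counts per Ensembl gene for each library, with no normalization and replicates kept separate. Their methods name Lexogen QuantSeq libraries and the Bluebee pipeline, and the submitters' processing notes name FastQC, STAR, featureCounts, edgeR and the build GRCh38. The use of strand and of molecular identifiers and the annotation release are not given in the sources used here. The sample labels mention Illumina preparation and not QuantSeq, and this difference could not be settled here. If the libraries are QuantSeq, reads lie near transcript ends and do not scale with transcript length.

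The counts were analysed with edgeR 4.0.16 in R 4.3.3 (filterByExpr, TMM scaling, glmQLFit and glmQLFTest, treatment as the only term, Benjamini-Hochberg adjustment over 13378 genes, threshold 0.05). The standard error (SE) was taken as the size of the log2 fold change over the root of its F statistic, and CPM use the TMM-scaled library sizes. limma 3.58.1 (voom with quantile normalization) and DESeq2 1.42.0 were alternatives, as were other scalings, filters, a replicate block and leaving out each library. Leaving out DMSO replicate 1 and SFN replicate 2 together, and an offset for transcript length, were added after seeing the data. The method was tested on simulated counts with 2-fold changes in 200 genes and no deviating library, and it recovered 100% of them. Members past the threshold changed by less, so this result does not bear on their calls. No pair of replicates agreed within sampling noise by a chi-square test per degree of freedom (lowest 3.70). Total counts of 12375860 or more a library leave counting error small for most members, and CLN3 and SGSH, with 3 to 20 and 26 to 63 counts, are the least precise.

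Positions and canonical transcript lengths are those of GENCODE 44, which held 28145 of the 28380 identifiers. Promoters came from RefSeq (GRCh38.p14), and primers from the study's supplementary material. The members and lists were chosen with earlier results of these data known. All 36 members are given, with every library's value for members past the threshold, without overlap between the groups, or with qPCR primers, and of the other lysosomal genes those past the threshold. Library values of CTSD, CD63, SMPD1 and IDS were added after they had been seen. No set test was run.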

Additional observations from a re-analysis of the deposited data

Results flagged for a closer look

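In 11 of 72 groups of 5 libraries (36 members, each treatment), 1 library lay farther from the others than Dixon's critical value of 0.71 for the gap divided by the range. Chance gives about 3.6 of 72. All 11 were in DMSO, 9 of them DMSO replicate 1 and 2 DMSO replicate 5.

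DMSO replicate 1 was high for CD63 (0.897 of the range), SMPD1 (0.85), CTSF (0.839), CTSD (0.823) and GUSB (0.76). It was low for SCARB2 (0.804), MANBA (0.778), IDS (0.747) and ARSB (0.712). DMSO replicate 5 was high for FUCA1 (0.81) and for ASAH1 (0.742). The canonical transcripts of the 5 genes high in DMSO replicate 1 were 1023 to 2410 bases long and those of the 4 low ones 4001 to 7580 bases. The part of transcript length in these values was not tested.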

How the results depend on the processing

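The number of members increased (11) depended on the libraries and on the scaling, while 0 members decreased under every alternative run. Of all genes, 6.05% to 24.4% decreased at an adjusted p under 0.05 across these settings. The share of all genes increased under the same setting is given in brackets. It was 3 (6.12%) with library size as the only scaling, where the median log2 fold change was 0.26 against -0.11 over all genes and 34 members were positive, 4 (4%) with no filter on low counts and 0 under the study's definition of a differentially expressed gene. Leaving out 1 library at a time gave 3 to 22 members: 22 (22.5%) without DMSO replicate 1, 5, 4, 5 and 6 (6.8% to 7.24%) without DMSO replicates 2 to 5, 5 (8.04%) without SFN replicate 2, 4, 3 and 4 (6.66% to 6.84%) without SFN replicates 1, 3 and 4, and 10 (8.39%) without SFN replicate 5. Without DMSO replicate 1 and SFN replicate 2 together it was 22 (23.2%). The other settings gave 12 with DESeq2 size factors (9.68%), 14 by DESeq2's Wald test (12.2%), 8 by limma-voom (9.84%), 10 with at least 5 CPM in 5 libraries (8.81%) and 12 with the length offset (12%). The median of 0.34 lay between 0.29 and 0.38 when 1 library was left out. Of the other lysosomal genes, 4 increased: 2 with library size only, 7 by DESeq2's Wald test, 2 to 15 with 1 library left out and 18 with both left out. Of the 2 that decreased, 1 remained by count under several settings, given here with the share of all genes decreased in brackets. These were DESeq2 size factors (13.3%), limma-voom (11.5%), no filter (6.05%), the filter of 5 CPM (14.4%), the replicate block (11.4%) and the length offset (15.8%). With 1 library left out, 1 to 2 decreased (10.8% to 23.5%). The cause was not tested.

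With the replicate number as a block, 5 members and 3 other lysosomal genes increased (6.81% of all genes) and 1 of the latter decreased (11.4%). The study's methods mention repeated measures without saying which samples they link, and the labels give the numbers no meaning. In these data the pairing was not seen: correlations of same-numbered libraries ranged from -0.327 to 0.555. Of the DMSO libraries, only replicate 5 correlated best with the SFN library of its own number. Depth limits CLN3 and SGSH most.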
